A study of Mus musculus with 8 samples.

Results

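The histone genes that mouse cells use while copying their DNA lie mainly in dense clusters, and these genes and their close relatives were followed in peak lists labelled H3K27me3 from chondrocytes of 4 genotypes. The members were chosen by name. They are the 67 protein-coding genes, of 21883 in the RefSeq table of GRCm38.p6, whose symbol begins with Hist1 to Hist4, H1f and a digit, H2ac, H2bc, H3c or H4c. They comprise 10 linker histone H1 genes, 17 H2A, 16 H2B, 12 H3 and 12 H4 genes. Of these, 63 lie in 3 clusters, defined as runs of members with gaps of at most 500 kb. Chromosome 13 holds block A, with 22 members over 327.9 kb (chr13:21715711-22043658), and block B, with 31 members over 403.9 kb (chr13:23531044-23934913). Chromosome 3 holds the third, with 10 members over 50.3 kb (chr3:96219885-96270192). The symbol rule also takes in 4 linker histone genes that stand alone, H1f0, H1f7, H1f8 and H1f10, and it does not take in clustered genes that carry other symbols, such as H4bc24. The name "replication histone" does not suit every member: H1f0 and H1f10 are replacement linker histones, and H1f6, H1f7, H1f8, H2ac1 and H2bc1 are known from germ cells.

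The core histones H2A, H2B, H3 and H4 form the particle around which DNA is wound, and H1 binds the linker DNA between particles. Replication-dependent histone genes are short, have no introns in their typical form, are transcribed mainly in S phase through the coactivator NPAT, and make mRNAs that end in a stem-loop bound by SLBP instead of a poly(A) tail. H3K27me3, the trimethyl mark on lysine 27 of histone H3, is written by Ezh2, the catalytic subunit of Polycomb repressive complex PRC2, and is erased by 2 demethylases, Utx (gene Kdm6a) and Jmjd3 (gene Kdm6b).

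The study addressed how the level of this mark differs between wild-type mouse chondrocytes, the cells of cartilage, and chondrocytes with conditional deletion (cKO) of Ezh2, Utx or Jmjd3. Each of the 4 genotypes had 1 ChIP library made with an anti-H3K27me3 antibody and 1 input library, and each peak list was called from 1 such pair. Deduplicated depth ran from 25655346 to 34786292 fragments for ChIP and from 16599532 to 24041619 for input. The lists held 28057, 33739, 49405 and 27013 peaks; here and below, 4 values in a row belong to wild type, then to the knockouts of Ezh2, of Utx and of Jmjd3. The sources used here give no Cre driver, age or number of animals. Only the Utx and Jmjd3 knockout libraries share a title prefix, and the labels do not say what the prefix stands for. With 1 library pair per genotype, an effect of genotype cannot be told apart from one of library or batch for any pair of genotypes. With n = 1 per genotype there is no replicate check and no test between genotypes. All 14 chondrocyte marker genes examined, Sox9, Col2a1 and Acan among them, had a peak within 2 kb of an end in every list, as had 60.3% of all protein-coding genes. Of 10 markers of muscle, blood, vessel and fat cells 0, 2, 5 and 2 had one, against 62.3%, 64.5%, 67.7% and 63.0% of all genes. A gene with a peak is therefore called marked and is not read as repressed, and which modification lay under the peaks was not tested.

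The promoters introduce the members, since nearly all results concern what lay over or beside them. RefSeq sequences on GRCm38.p6, from 250 bases before to 50 after the transcription start, were at hand for 62 of the 67 members, with 63 promoters in all, because H2bc6 has 2. They were searched on both strands for 3 motifs. TATAAA is the form of the TATA box that many histone genes carry. The pentamer CCAAT is bound by NF-Y. The heptamer TTTGCAT is the core of the octamer known from H2B promoters. The printed stretches are the bases before the start, cut where they reach a neighbouring gene, 5′ to 3′ in the direction of transcription, with matches to these motifs in capitals. The first pair holds the H2A gene H2ac20 (chr3:96220881-96221071, minus strand), under a high-ranking peak in every list, and the testis H2B gene H2bc1 (chr13:23934157-23934406, minus strand), which had no peak near it in any list. They are set side by side because the full windows of both hold all 3 motifs.
H2ac20: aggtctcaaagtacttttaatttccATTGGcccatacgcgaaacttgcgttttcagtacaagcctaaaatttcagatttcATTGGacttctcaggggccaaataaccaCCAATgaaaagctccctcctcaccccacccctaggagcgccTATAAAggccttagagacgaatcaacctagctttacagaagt
H2bc1: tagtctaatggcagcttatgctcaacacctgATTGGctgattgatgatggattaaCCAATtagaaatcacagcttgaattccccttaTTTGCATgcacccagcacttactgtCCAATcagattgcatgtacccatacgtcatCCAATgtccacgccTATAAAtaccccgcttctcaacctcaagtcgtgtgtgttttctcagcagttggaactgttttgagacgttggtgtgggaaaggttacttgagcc
H2ac20 has 1 TATAAA and 3 CCAAT in this stretch, and its TTTGCAT is not within it. H2bc1 has 1 TATAAA, 4 CCAAT and 1 TTTGCAT.

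The second set shows the near-identical copies. H4c17 (chr13:21811496-21811745, plus strand) and H4c18 (chr13:21832198-21832447, minus strand) are H4 genes in a mirrored arrangement in block A, and H3c14 (chr3:96246435-96246684, plus strand) and H3c15 (chr3:96239128-96239377, minus strand) are H3 genes in a mirrored arrangement on chromosome 3.
H4c17: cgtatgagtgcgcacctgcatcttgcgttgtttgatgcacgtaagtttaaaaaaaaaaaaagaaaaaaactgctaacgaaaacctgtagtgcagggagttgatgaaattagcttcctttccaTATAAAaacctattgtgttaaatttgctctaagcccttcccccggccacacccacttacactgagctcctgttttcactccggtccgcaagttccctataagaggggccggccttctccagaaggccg
H4c18: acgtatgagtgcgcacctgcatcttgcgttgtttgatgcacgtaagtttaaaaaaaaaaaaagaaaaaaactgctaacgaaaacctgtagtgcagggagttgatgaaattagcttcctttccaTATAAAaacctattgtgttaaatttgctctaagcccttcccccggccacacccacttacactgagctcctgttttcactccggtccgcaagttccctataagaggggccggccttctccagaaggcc
H3c14: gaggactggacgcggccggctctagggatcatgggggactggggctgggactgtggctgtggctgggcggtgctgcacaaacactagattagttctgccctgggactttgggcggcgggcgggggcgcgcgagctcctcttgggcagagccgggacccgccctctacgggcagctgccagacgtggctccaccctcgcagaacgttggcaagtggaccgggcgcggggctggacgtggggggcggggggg
H3c15: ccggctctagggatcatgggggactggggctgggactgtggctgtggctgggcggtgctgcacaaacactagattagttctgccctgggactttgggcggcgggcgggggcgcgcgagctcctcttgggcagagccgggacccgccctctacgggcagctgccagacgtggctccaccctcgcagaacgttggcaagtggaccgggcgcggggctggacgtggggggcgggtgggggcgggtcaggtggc
With a shift of 1 base, H4c17 and H4c18 were identical at 249 of 249 bases. H3c14 and H3c15, with a shift of 15 bases, were identical at 234 of 235. Over the full windows of all 1953 pairs of member promoters, only 3 pairs reached 90% identity: these and H4c11 with H4c12, identical at 274 of 286 bases. The next pair, H4c18 with H4c9, stood at 49.7%, and the median pair at 30.9%. The sources used here do not say how reads that map equally well to several copies were treated, so values at these copies are uncertain. The same holds for the H2A genes beside them in the same mirrored arrangements, H2ac23 and H2ac24 in block A and H2ac18 and H2ac19 on chromosome 3.

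The third set gives an H2B gene that faces an H2A gene, an H1 gene, the H3 gene with the lowest-ranking wild-type peak of block B, and a replacement histone gene. The stretch of H2bc12 (chr13:22035644-22035820, plus strand) is the whole gap to the divergent gene H2ac12. H1f4 lies at chr13:23622559-23622808 (minus strand), H3c2 at chr13:23752095-23752344 (plus strand) and H1f0 at chr15:79027962-79028211 (plus strand).
H2bc12: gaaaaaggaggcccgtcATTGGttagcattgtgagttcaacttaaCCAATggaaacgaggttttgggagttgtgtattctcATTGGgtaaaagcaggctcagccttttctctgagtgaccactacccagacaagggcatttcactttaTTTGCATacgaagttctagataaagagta
H1f4: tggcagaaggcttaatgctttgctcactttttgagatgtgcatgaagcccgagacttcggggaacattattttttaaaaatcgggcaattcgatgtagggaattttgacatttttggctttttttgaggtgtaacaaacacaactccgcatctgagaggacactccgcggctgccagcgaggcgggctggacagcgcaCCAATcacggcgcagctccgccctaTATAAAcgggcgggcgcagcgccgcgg
H3c2: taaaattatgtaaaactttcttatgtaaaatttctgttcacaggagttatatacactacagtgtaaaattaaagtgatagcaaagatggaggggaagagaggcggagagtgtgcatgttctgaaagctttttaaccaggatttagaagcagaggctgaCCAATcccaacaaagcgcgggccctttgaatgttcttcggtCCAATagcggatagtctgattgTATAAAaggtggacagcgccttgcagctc
H1f0: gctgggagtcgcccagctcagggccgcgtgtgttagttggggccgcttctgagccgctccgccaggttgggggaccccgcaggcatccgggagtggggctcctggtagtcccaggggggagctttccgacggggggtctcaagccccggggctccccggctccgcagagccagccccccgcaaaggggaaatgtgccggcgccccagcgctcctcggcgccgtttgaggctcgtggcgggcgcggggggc
H2bc12 has 3 CCAAT and, beginning 29 bases before its start, 1 TTTGCAT. H1f4 has CCAAT 52 bases and TATAAA 27 bases before its start, and H3c2 has CCAAT at 92 and 51 bases and TATAAA at 29 bases. The H1f0 stretch holds none of the 3 motifs and is 74.4% G and C, against 41.2% for H3c2.

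Over the full windows, 57.6% of the 59 promoters of clustered members held TATAAA, against 12.6% of all 21262 protein-coding promoters in the table. CCAAT was found in 86.4% against 38.2%, and TTTGCAT in 23.7% against 4.23%. The histone types differed in which motif they held. CCAAT was in the window of every clustered H1, H2A, H2B and H3 promoter with a sequence (6, 17, 15 and 10 promoters) and in 3 of 11 H4 promoters. At H3c14 and H3c15 the 250 bases before the start held no CCAAT, so their matches reach past the start. TTTGCAT was in 7 of 15 H2B, 6 of 17 H2A and 1 of 11 H4 promoters, and in 0 of 6 H1 and 0 of 10 H3 promoters. H2A and H2B genes often face each other across one stretch, as H2ac12 and H2bc12 do, so a match can count for both. The median number of CpG dinucleotides was 11 in the clustered members and 13 in all promoters, and the median G and C content was 45.3% against 56.3%. Motif matches are letters in a window and were not tested as sites.

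Nearly every member was marked, in every genotype. A gene was called marked when a peak reached to within 2 kb of its first or last base. In wild type 62 of 67 members were marked (92.5%, 95% Wilson interval 83.7 to 96.8, counting error only), against 62.3% of all protein-coding genes. In Ezh2-cKO 62 members were marked against 64.5% of all genes. In Utx-cKO 63 were marked (94.0%, 85.6 to 97.7) against 67.7%, and in Jmjd3-cKO 62 against 63.0%. The same 62 members were marked in all 4 lists, where 60.3% of all genes were. Neighbouring members share peaks, so they are not independent observations, and the intervals are too narrow for that reason.

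Within the 3 clusters 60 of 63 members were marked in each list (95.2%). Block A had 21 of 22, block B 29 of 31 and chromosome 3 had 10 of 10, the same count in each genotype. By type, 12 of 12 H3 genes, 12 of 12 H4 genes, 16 of 17 H2A genes and 14 of 16 H2B genes were marked in each list. Of the 10 H1 genes 8 were marked in wild type, Ezh2-cKO and Jmjd3-cKO, and 9 in Utx-cKO. All 62 members marked in wild type were also marked in each knockout list. Over all genes marked in wild type the shares were 98.4%, 99.3% and 97.6% for the knockouts of Ezh2, Utx and Jmjd3, so the members' retention was near the background.

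The 5 members that were unmarked in at least 1 list were mostly germ-cell genes. H2ac1 and H2bc1, the testis forms of H2A and H2B at the far end of block B, had their nearest peak 170232 and 169520 bp away in wild type. In Ezh2-cKO the nearest peak was 37603 and 38360 bp away. H1f7, a linker histone of spermatids on chromosome 15, had no peak nearer than 38346 bp in any list. H1f8, the oocyte linker histone on chromosome 6, was marked in Utx-cKO alone, by a 447-bp peak 1050 bp from the gene with fold enrichment 2.61, at percentile 14.5 of that list. Its nearest peak was 36261 bp away in wild type, 7554 bp in Ezh2-cKO and 36519 bp in Jmjd3-cKO. H1f6, the testis linker histone inside block B, was marked in all 4 lists, but by the peak over its neighbour H4c3. That peak lay 508 bp from H1f6 in wild type, 602 bp in Ezh2-cKO and 277 bp in Jmjd3-cKO, and covered the gene in part in Utx-cKO, where it was 3416 bp long against 2169 to 2367 bp elsewhere. The start of none of the 5 germ-cell members lay under a peak in any list. The fifth unmarked member, H2bc23 in block A, is no germ-cell gene by its name; its nearest peak lay 2007, 2020, 2058 and 2041 bp away, just past the 2-kb limit.

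The region around H2bc23 stood apart from the rest of block A. H2ac23 and H4c17 on one side, and H4c18 and H2ac24 on the other, counted as marked only through short peaks beyond the ends of the genes. The peak beside H4c17 was 367, 361, 299 and 324 bp long and began 56, 69, 107 and 90 bp past the 3′ end of that gene. Its mirror image beside H4c18 was 348, 349, 366 and 342 bp long, at 86, 91, 89 and 59 bp from the 3′ end. Both had fold enrichment between 4.62 and 5.43 in every list. None of the 4 genes was overlapped by a peak, and no start among H2bc23, H2ac23, H4c17, H4c18 and H2ac24 lay under one, in any genotype. These are the genes around the 2 promoters printed above that are identical at 249 bases; whether the identity of the copies plays a part in the missing peaks was not tested.

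A stricter reading therefore gives fewer genes. A peak overlapped the gene itself in 57 of 67 members in every list, against 65.2%, 67.3%, 70.3% and 65.7% of all genes. The marked members that no peak touched were H2ac23, H4c17, H4c18 and H2ac24 in every list, H1f6 in all lists but Utx-cKO, and H1f8 and H2ac18 in Utx-cKO. Peaks covered the whole gene in 47, 46, 45 and 48 members. The matching share over all genes was not computed, and short genes are more easily covered whole. These counts are therefore not read as a trait of the members.

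**Figure D1:**
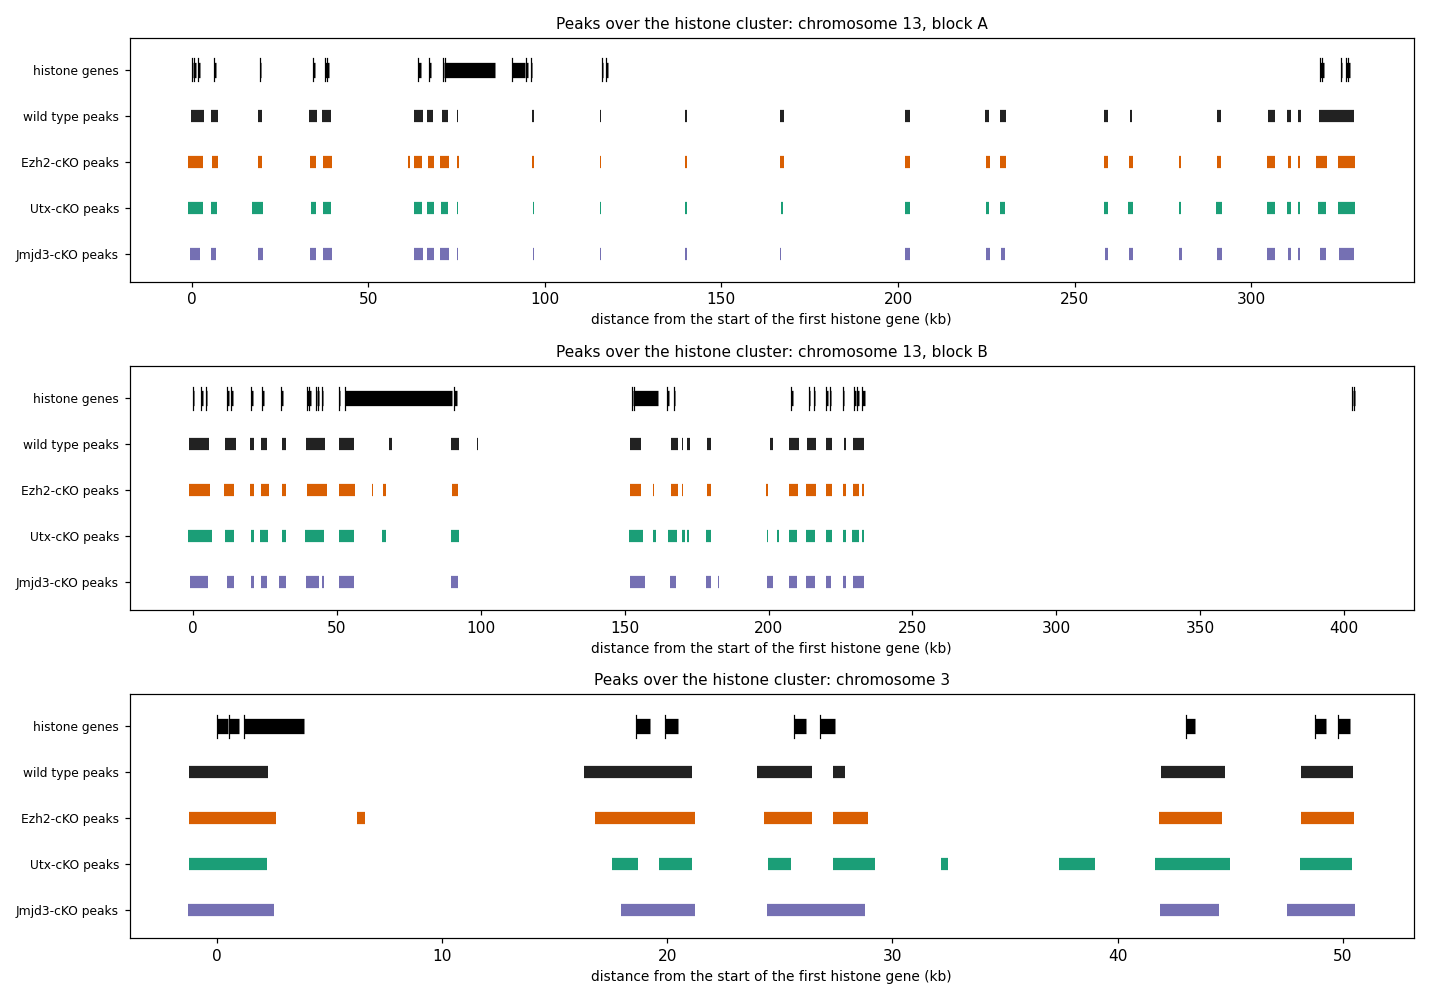
Peaks over the 3 histone clusters, with distance in kb from the start of the first histone gene on the horizontal axis. Black bars are histone genes and coloured bars are the peaks of each genotype; the 2 isolated thin peaks in block A beside the third run of genes lie beside the mirrored H4 genes, and the pair of testis genes at the right end of block B has no peak nearby.

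The marking of the members came from few and long peaks. In all, 34, 37, 39 and 35 distinct peaks served the members. Of these, 23, 25, 25 and 24 lay within reach of 2 or more members, and up to 5 members shared 1 peak. Over all genes, 12896, 14045, 16162 and 12923 distinct peaks served 13635, 14114, 14816 and 13781 marked genes. How many of those peaks served 2 or more genes was not computed, and the members lie close together. Block A had 11, 12, 12 and 12 distinct peaks at its members, block B had 15, 17, 17 and 16, and chromosome 3 had 6, 6, 7 and 5. The median length of the peaks at members was 2448, 2451, 2291 and 2494 bp, at percentile 83.4, 83.9, 80.8 and 82.8 of the lengths in their own list. Peaks at all marked genes had medians of 1750, 1769, 1948 and 1781 bp, at percentile 71.3, 72.8, 75.8 and 69.8. Peaks covered 12.2%, 11.99%, 11.6% and 10.6% of block A, 13.2%, 12.9%, 13.9% and 12.2% of block B, and 29.9%, 31.9%, 30.4% and 31.0% of the chromosome 3 cluster.

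The longest peak of the members lay at the right end of block A in wild type. It was 9810 bp long (chr13:22034967-22044776), stood at rank 68 by length in its list, and spanned H2ac12, H2bc12, H4c9, H2ac11 and H2bc11. In each knockout list the same stretch held 2 peaks instead. In Ezh2-cKO they were 3059 bp over H2ac12 and H2bc12 and 4850 bp over the other three genes, in Utx-cKO 2209 and 4739 bp, and in Jmjd3-cKO 1920 and 4273 bp. All 5 genes were fully covered in each list; the lists differed in the stretch between the pair and the other three, which only the wild-type peak bridged.

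Block B had its longest peak over H4c8, H2ac10 and H3c8 in every list, at 6920, 7086, 8264 and 6434 bp. The peak over H2ac8, H2bc8, H2bc7, H2ac7 and H3c4 was 6643, 6907 and 6829 bp long in the first 3 lists. In Jmjd3-cKO it was replaced by peaks of 4285 and 607 bp, the shorter over H3c4, which left part of H2ac7 uncovered. At the other end of the block, H4c1, H3c1 and H1f1 lay under 1 peak in wild type (3830 bp) and Jmjd3-cKO (3733 bp), and under 2 in Ezh2-cKO (1934 and 761 bp) and Utx-cKO (2327 and 659 bp).

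On chromosome 3 the longest peak differed by list. It lay over H3c15 and H2ac19 in wild type (4801 bp) and Ezh2-cKO (4421 bp), over H2ac21, H2ac20 and H2bc21 in Utx-cKO (3478 bp), and over H2ac18 and H3c14 in Jmjd3-cKO (4380 bp). In how much of a gene was covered, the lists of this cluster differed most at H3c15, H3c14 and H2ac18. H3c15 was fully covered in 3 lists and only in part in Utx-cKO, where peaks of 1192 and 1469 bp left a gap at its start. H3c14 was fully covered in Jmjd3-cKO alone; in wild type, Ezh2-cKO and Utx-cKO its start lay in a gap between 2 peaks. H2ac18 was fully covered in 3 lists, and in Utx-cKO the nearest peak, 1043 bp long, lay 107 bp from it. All 3 genes lie in the mirrored arrangement of near-identical copies, and whether that plays a part was not tested.

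In bases, the knockout lists kept most of the wild-type coverage of the clusters. Wild-type peaks covered 112.2 kb in and just beside the 3 clusters, against 112.9, 114.9 and 104.1 kb in the knockouts of Ezh2, Utx and Jmjd3. Of the wild-type bases, 88.0%, 84.4% and 82.0% lay in peaks of these knockouts too, where the values over all chromosomes were 82.6%, 88.8% and 79.6%. Read the other way, 87.5%, 82.5% and 88.4% of the knockout bases in the clusters were also in wild type, against 69.6%, 48.4% and 77.9% over all chromosomes. The Utx-cKO list covered 74.3 Mb in all and wild type 40.5 Mb, while within the histone clusters their totals differed by less than 3 kb.

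The peaks at members ranked above the middle of their lists but low among marked genes. Fold enrichment was computed by the authors against the input of the same genotype, and it is compared between lists here only as a percentile, the share of peaks in the same list that it equals or exceeds. Where 4 fold enrichments are given in a row, each describes its own list, and a rise or fall along the row is not read as a change of the mark. The median fold enrichment of the marked members, each at its strongest peak, was 4.48, 4.99, 4.63 and 5.34, against 6.41, 7.21, 8.65 and 7.96 for all marked genes. Their median percentile among all peaks was 62.6, 68.9, 74.3 and 61.6, against 77.5, 80.9, 86.5 and 76.3 for all marked genes. The chondrocyte markers also lay below all marked genes, at 70.6, 71.9, 80.8 and 66.3. Ranked among the marked genes alone, the median member stood at percentile 23.1, 25.1, 18.7 and 23.8, and 8, 11, 9 and 8 members stood above the middle. A list with more weak peaks gives the same peak a higher percentile, and the Utx-cKO list is the longest. Counted per peak, the median percentile was 62.6, 68.9, 74.5 and 61.2, and with each list reduced to its 27013 strongest peaks by q it was 61.1, 61.1, 53.6 and 61.2. Utx-cKO thus went from the highest to the lowest, so the order of the lists in the percentiles given here is no order of the mark. With peaks of fold enrichment 4 or more only, 43, 51, 55 and 59 of the 67 members were marked, against 51.2%, 53.8%, 58.1% and 54.9% of all genes. This fold limit cuts each list at a different depth, so the order of these 4 counts is no order of the mark.

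**Figure D2:**
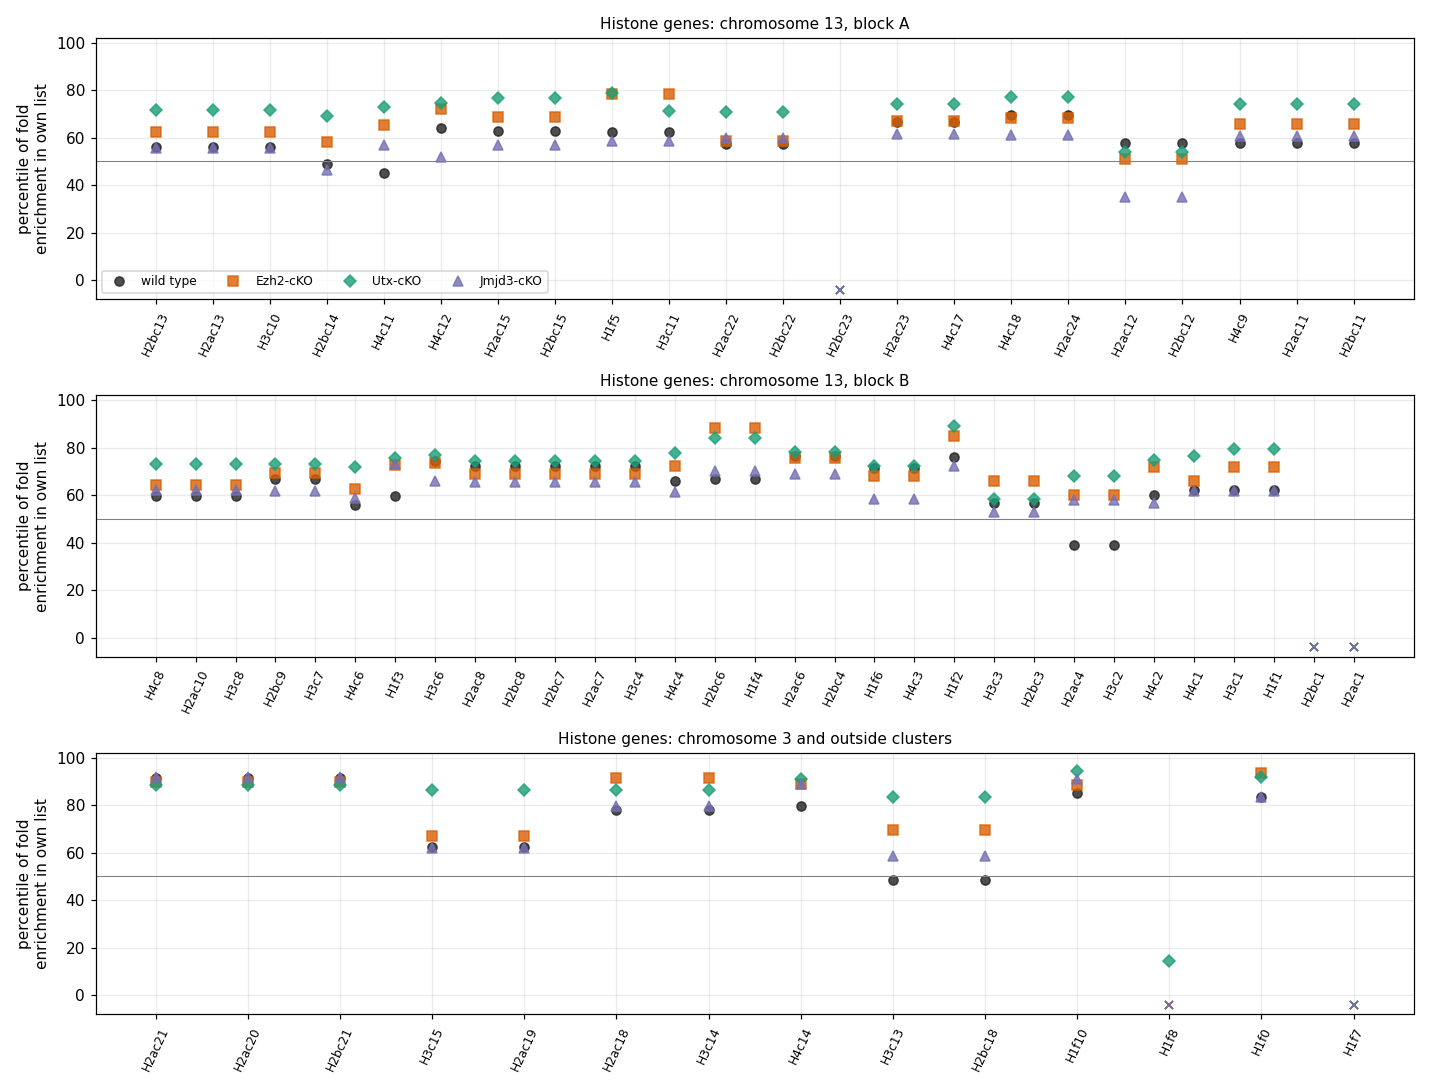
Percentile of fold enrichment of each member's strongest peak within its own list (vertical axis), with members in genome order and 1 point per genotype; crosses below 0 mark lists in which the member had no peak, and the grey line is the middle of the list. Block A members lie between 35.2 and 78.6, and the H2ac21, H2ac20 and H2bc21 group on chromosome 3 between 88.6 and 91.7.

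The clusters were not alike in rank. The median percentile over marked members was 57.9, 65.8, 74.2 and 58.8 in block A, 66.9, 69.0, 74.2 and 62.0 in block B, and 78.0, 89.4, 86.5 and 79.4 on chromosome 3, which was highest in each list. Chromosome 3 rested on 5 to 7 peaks. Its H2A and H2B genes H2ac21, H2ac20 and H2bc21 shared the strongest peak of any clustered member in wild type, with fold enrichment 8.87, 9.25, 9.40 and 12.1, at percentile 91.3, 89.8, 88.6 and 91.7. H4c14, the single H4 gene there, had fold enrichment 6.72, 9.02, 10.3 and 11.0. The H3 and H2B genes H3c13 and H2bc18 were the lowest of that cluster in wild type, and they had the widest spread of any clustered member between lists. Their fold enrichment was 3.31, 5.11, 7.51 and 4.87, at percentile 48.7, 69.6, 83.2 and 58.5.

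In block B the highest wild-type peak was that over H2ac6 and H2bc4, with fold enrichment 6.25, 6.22, 5.76 and 6.64. The lowest was over H2ac4 and H3c2, with 2.99, 3.68, 3.68 and 4.76, at percentile 39.2, 60.1, 67.9 and 57.8, the widest spread of the block. Its peak was of like length throughout, at 1920, 2128, 1822 and 1795 bp. In block A the highest in wild type was the short peak beside H4c18 and H2ac24, with 5.38, 4.85, 5.43 and 5.29. The lowest was over H4c11, with 3.16, 4.33, 4.32 and 4.63, at percentile 45.2, 65.4, 72.7 and 56.8. Its near copy H4c12 had 4.67, 5.53, 4.68 and 4.005. In each knockout list the lowest peak of block A was instead that over H2ac12 and H2bc12. Its fold enrichment was 3.11, 3.10 and 3.10 in the knockouts of Ezh2, Utx and Jmjd3, at percentile 51.1, 53.9 and 35.2. In wild type these genes lay under the 9810-bp peak, at percentile 57.9.

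In the 3 knockout lists the highest peak of block B lay at a linker gene, namely H1f4 with Ezh2 deleted, H1f2 with Utx deleted and H1f3 with Jmjd3 deleted, whereas in wild type it was that over H2ac6 and H2bc4. H1f4 had fold enrichment 5.02, 8.83, 7.84 and 6.84, at percentile 66.9, 88.2, 84.2 and 70.0. H1f2 had 6.23, 8.07, 9.61 and 7.25, at percentile 76.2, 85.0, 89.1 and 72.4. H1f3 had 4.15, 5.72, 5.03 and 7.37, and H1f5 in block A had 4.44, 6.71, 5.91 and 4.91. Over the 6 clustered H1 genes the median percentile was 64.6, 75.6, 78.9 and 65.8. The medians of the clustered core types lay in a narrower band: H2A at 64.7, 67.6, 74.3 and 61.7, H2B at 60.4, 68.9, 74.2 and 60.2, H3 at 62.2, 69.2, 73.6 and 61.7, and H4 at 63.2, 67.6, 74.4 and 61.0. In wild type the H1 median was thus just below that of H2A, and in each knockout list it was above those of all 4 core types. Types share peaks, so these medians are not independent. H1f6 takes its value from the peak over H4c3, and H3c1 shares the value of H1f1 in every list. H3c11 shares the value of H1f5 in all lists but Utx-cKO. Whether the types differ between genotypes was not tested. H2bc6, an H2B gene, takes its value from the same peak as H1f4. That peak also covered the upstream start of H2bc6 in every list, so it is not a peak of the linker gene alone.

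Most starts of clustered members lay under a peak. Of the 59 starts of clustered members, 48 lay under a wild-type peak, against 55.6% of all protein-coding starts. The knockouts of Ezh2, Utx and Jmjd3 had 47, 45 and 49, against 57.8%, 60.9% and 57.1%. As shares of the clustered starts these counts were 81.4%, 79.7%, 76.3% and 83.1%. A further comparison is with 3976 other promoters of 8 to 16 CpG, the interquartile range of the clustered members. Their starts lay under a peak in 63.5%, 67.8%, 73.6% and 66.1%. The difference from all 59 clustered starts was smallest in Utx-cKO. Only the other promoters were limited to this range. The clustered ones held 3 to 41 CpG, so the 2 sets are not matched. Their median G and C content also differed, at 55.3% for the other promoters and 45.3% for the clustered ones. Of the 59 clustered starts 45 lay under a peak in every list and 10 in none. The 10 were the starts of H2bc23, H2ac23, H4c17, H4c18, H2ac24, H1f6, H2bc1, H2ac1, H4c4 and H4c2. H4c4 and H4c2 were covered in part by peaks that did not reach the start. The 4 starts that differed between lists were those of H2ac4, H3c15, H2ac18 and H3c14. By type, 9 of 10 H3 starts were under a wild-type peak, 13 of 15 H2B, 14 of 17 H2A, 5 of 6 H1 and 7 of 11 H4.

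At the start itself 81.0%, 79.3%, 75.9% and 82.8% of 58 clustered members lay under a peak, counting 1 start per gene. The share was highest downstream, at 86.2% in each list, first reached 500, 550, 550 and 50 bp past the start. At 1 kb upstream it was 53.4%, 56.9%, 56.9% and 55.2%, against 15.9%, 17.4%, 22.3% and 16.2% of 17429 other genes. At 5 kb upstream it was 36.2%, 27.6%, 31.0% and 24.1%, against 2.95%, 3.72%, 6.28% and 3.01%. Neighbouring histone genes lie within these distances, so the flanks of one member hold the starts of others.

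**Figure D3:**
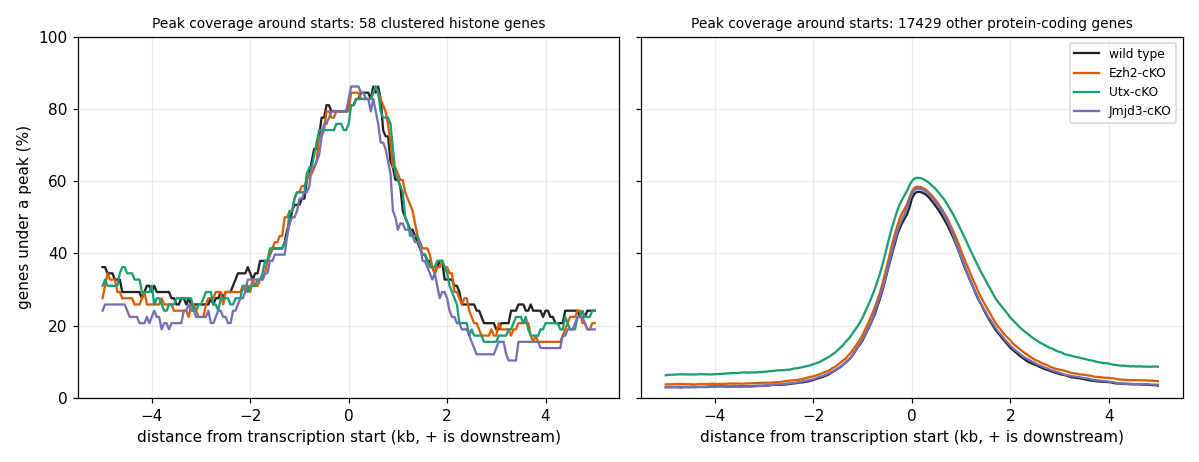
Share of genes under a peak (vertical axis, %) by distance from the transcription start in kb, with downstream positive, for 58 clustered histone genes and 17429 other protein-coding genes, 1 line per genotype. The histone genes reach 86.2% within 550 bp downstream of the start in each list and remain above the other genes out to 5 kb on both sides.

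Among the stand-alone linker genes H1f0 and H1f10 ranked high, whereas H1f7 was unmarked and H1f8 had only the weak peak in Utx-cKO. H1f0, a replacement histone of cells that have stopped dividing, had fold enrichment 7.32, 10.4, 10.6 and 9.43, at percentile 83.6, 93.5, 91.6 and 83.3, under a peak of 3772 to 4463 bp. H1f10, another linker variant, had 7.57, 8.88, 11.7 and 11.8. Both stood above the median of the clustered members in each list. Some clustered members ranked higher: H2ac21, H2ac20 and H2bc21 stood above both in wild type (percentile 91.3) and Jmjd3-cKO (91.7). H1f0 and H1f10 also belong to a list of 11 replacement histone genes, transcribed outside S phase as well. All 11 were marked in every list, where 60.3% of all protein-coding genes were. The median percentile of the 11 was 94.0, 93.5, 94.2 and 91.7. Lowest of that list was Cenpa, the centromeric H3, with fold enrichment 5.50, 4.50, 6.37 and 5.57.

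The genes that act on histone genes or their products were marked throughout. Of 16 genes for histone transcription and mRNA processing, 16 were marked in each list, with a median percentile of 82.1, 82.7, 89.0 and 85.7. Of all protein-coding genes 62.3%, 64.5%, 67.7% and 63.0% were marked. Casp8ap2, a factor of the histone locus body, had fold enrichment 5.85, 8.86, 8.35 and 7.93. Ccne1 and Ccne2, the cyclins E that drive entry into S phase, had 7.16, 7.40, 9.63 and 9.31, and 7.02, 7.11, 9.63 and 9.16. Npat had 7.16, 7.29, 10.3 and 9.98, and Slbp 5.19, 8.75, 9.13 and 9.08; these were named for their role after their values were seen. All 13 histone chaperone genes were marked, with a median percentile of 85.0, 89.9, 93.1 and 86.7. Among them Asf1a, a chaperone of H3 and H4, had fold enrichment 10.5, 12.3, 16.2 and 18.8, its paralogue Asf1b 7.34, 9.30, 13.1 and 11.8, and Chaf1a, a subunit of the replication-coupled assembly factor, 6.64, 5.46, 6.73 and 6.41. The clustered histone genes thus had the lowest median rank of these 4 lists in each genotype.

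Germ-cell histone genes were the reverse in marking. Of 6 such genes, 5 of them members, 1 was marked in wild type, Ezh2-cKO and Jmjd3-cKO, namely H1f6. In Utx-cKO 3 were marked, H1f6, H1f8 and the spermatid gene Hils1, the last with fold enrichment 3.09. The shares over all protein-coding genes were 62.3%, 64.5%, 67.7% and 63.0%. The Utx-cKO list is the longest, and it also held the most markers of other cell types. Of 10 other protein-coding genes inside the cluster spans, 3 were marked in every list: Hfe, an iron regulator, with fold enrichment 5.21, 6.02, 7.46 and 4.94, Pom121l2 with 6.13, 6.37, 6.93 and 4.59, and Zfp184 with 4.75, 4.43, 7.73 and 5.67. The other 7, H4bc24, Prss16, Trim38 and the transporter genes Slc17a1 to Slc17a4, had no peak within 2 kb of an end in any list.

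**Figure D4:**
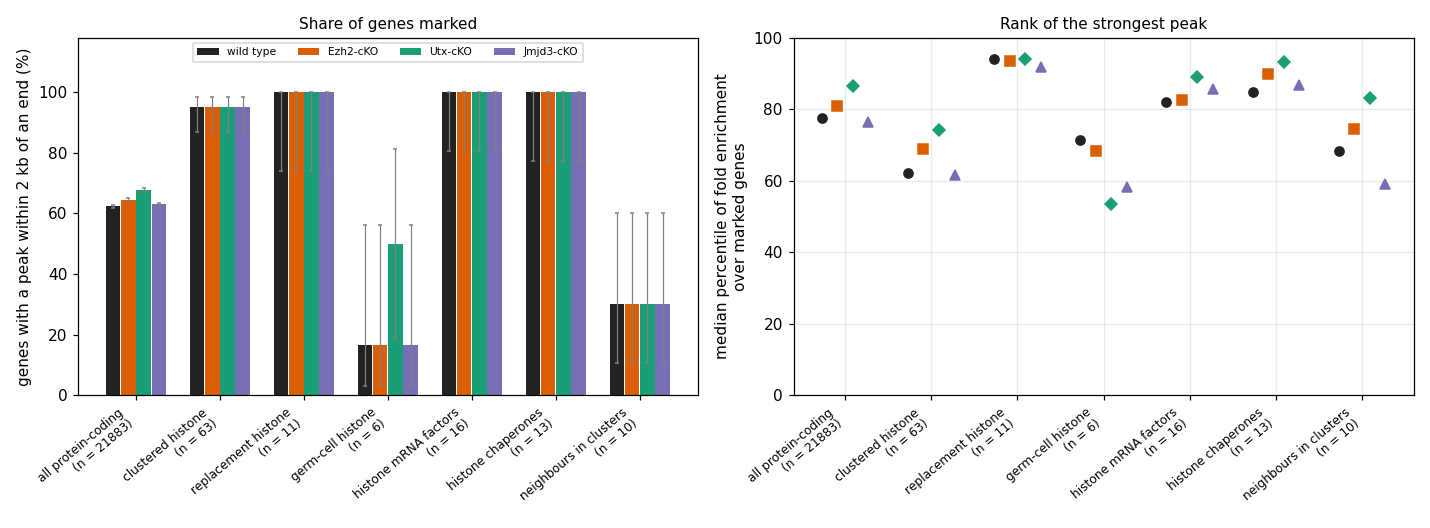
Share of genes marked (left, with 95% Wilson intervals that cover counting error only) and median percentile of fold enrichment of the marked genes (right), by gene group and genotype. Clustered histone genes are marked at 95.2% in each list, but their median percentile lies below those of all protein-coding genes, replacement histones, histone mRNA factors and chaperones. The medians of germ-cell histones and of neighbours, each over at most 3 marked genes, lie above it in some lists and below it in others.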

How the data were processed

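Each of 4 genotypes had 1 ChIP and 1 input library. The submitters' processing notes name Bowtie2, MACS2, ChIPseeker, FastQC 0.11.5, deepTools 2.4.1 and HOMER 4.10; the genome build is not given there. MACS 2.1.2 was run by the authors on each sample by itself for broad peaks, per the file headers, at a q of 0.05, from paired-end fragments against the input of the same genotype, keeping 1 duplicate per position and scaling the larger library to the smaller. For every peak the deposited lists hold the pileup, a coverage signal, then −log10 values of p and q, and fold enrichment, a ratio to local input. Depth and list length differ between genotypes, so presence in one list and absence in another need not be a change of the mark.

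Genes and promoter sequences came from RefSeq, GRCm38.p6. The build was checked by a shift: wild-type peaks marked 13635 genes in place, and 4836 and 4789 after gene positions were moved by 20 kb either way. The gene table gives no strand or exons, so exonic, intronic and UTR positions were not told apart. For each member, peaks within 2 kb of either end were taken, the strongest gave its fold enrichment, and percentiles were computed within each list. Motif searches covered 250 bases before to 50 after a start. The members and gene lists were chosen with earlier results of these data known. Named with all values are members unmarked in any list, the highest and lowest per cluster in wild type, those under the longest peaks and those with the widest spread, and, from other lists, genes whose marking differed and up to 3 others in alphabetical order; further names were chosen after their values were seen. With n = 1 per genotype no test was made. Intervals are 95% Wilson intervals. The alternatives were 9 other settings for peaks, windows and clusters. The marking step was tested on simulated peaks. The software was Python 3.11.15 with pandas 2.3.3, numpy 2.4.6, matplotlib 3.10.9 and scipy 1.17.1.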

Additional observations from a re-analysis of the deposited data

How the results depend on the processing

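The count of marked members, the peaks per cluster and the median length and rank of the peaks were recomputed with a q of 0.001 or less, with fold enrichment of 4 or more, with equally long lists, with windows of 1 and 5 kb, with a peak anywhere over the gene, with peaks within 3 kb merged, with the peak centre required in the window and with clusters split at gaps over 100 kb. Of 204 recomputed values, 187 stayed within 1.5 times the count, or within the 95% order-statistic interval of the median. The marked members numbered 43 to 64 over all settings, while the share of all protein-coding genes ran from 51.2% to 71.7%. The lowest count, 43 members (64.2%), came from the wild-type list at the fold limit, against 51.2% of all genes. The highest, 64 members (95.5%), came from the Utx-cKO list and the 5-kb window, against 71.3%. When the peak centre had to lie in the window, wild type had 54 marked members (80.6%), against 59.5%. With fold enrichment of 4 or more, block A had 5 distinct wild-type peaks, and with merged peaks it had 7. The median percentile of the peaks at members was 42.9, 47.4, 51.1 and 45.4 at the stricter q, and 20.7, 20.8, 20.3 and 20.2 at the fold limit, each in the order of the report; both settings remove weak peaks, which lowers the percentile of those left by construction. With equally long lists it was 61.1, 61.1, 53.6 and 61.2, which turns Utx-cKO from the highest to the lowest. With merged peaks it was 71.5 for Utx and 58.4 for Jmjd3 knockouts, and the median length was 3831 bp in wild type, 4047.5 bp in Ezh2-cKO and 3523.5 bp in Utx-cKO. No replicate could be left out, and no paired analysis was possible because each genotype has 1 ChIP library. The weak peak at H1f8 in Utx-cKO was absent with equally long lists, which drop weak peaks by construction; the effect of depth was not tested.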

Other observations

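Between blocks A and B of chromosome 13 lie 41 protein-coding genes, and few of them were marked. The counts were 4, 3, 4 and 3, in the order of the report, against 62.3%, 64.5%, 67.7% and 63.0% of all protein-coding genes. Of the 53 members on either side 50 were marked in each list. Among the 41 genes between the blocks 36 are Vmn1r genes, which encode vomeronasal pheromone receptors, and 0 of 36 were marked in any list. The Vmn1r genes were singled out after their values were seen.

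In place, 62 of the 67 members had a wild-type peak within 2 kb. After gene positions were moved by 20 kb, 28 members had one in one direction and 39 in the other. Of all 21883 protein-coding genes 13635 had one in place, and 4836 and 4789 after the same moves. Which peaks the moved windows reached was not examined.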
